A study of Anopheles gambiae with 9 samples.

Results

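In the pedicel of Anopheles gambiae, the antennal segment that houses the Johnston's organ, 29 transcripts of 28 genes stood high in all 3 male libraries and low in all 6 XX libraries, out of 16066 transcripts of 13845 genes in the table. They were chosen by a rule on CPM (a transcript's estimated count divided by the total of its library, times 1000000): the lowest dsxF+/+ XY library had to reach 2 CPM and at least 2 times the sum of 0.5 CPM and the highest of all XX libraries. They are called XY-high transcripts here. Because the libraries themselves chose them, the height of the XY libraries over the XX libraries is a description and not a finding. The rule capped both XX groups below the XY libraries but did not set one XX group against the other, and this comparison could be tested. The other transcripts of the same genes were not used by the rule. Their counts are not independent of it, because reads shared within a gene were divided between its transcripts.

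Pedicels were pooled from 3 groups with 3 libraries each: dsxF+/+ XY males, dsxF-/- XX intersex females, whose doublesex gene lacks a working female-specific exon, and dsxF+/+ XX females. Both dsxF+/+ groups came from the G3 strain and the intersex mosquitoes from a doublesexF mutant strain, so that strain background and mutation cannot be told apart wherever the intersex group is compared. All were adults of 2 to 3 days at the start of 3 days of light and dark entrainment, and were frozen at the onset of dusk. The dsxF+/+ pupae were separated by sex while the dsxF-/- pupae were not, which also cannot be told apart from the mutation. Each library is a pool of many pedicels, and p-values measure the spread between these pools. Because the pedicel was sequenced in bulk, fewer cells of a type and less RNA per cell cannot be told apart in any value below.

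Doublesex is a switch gene at the end of the insect sex determination cascade. Its transcript is spliced into a female and a male form, and the resulting transcription factors steer the sexual differentiation of somatic tissues. Male mosquitoes locate flying females by ear, and their Johnston's organ holds more auditory neurons than that of females, with motile cilia driven by axonemal dyneins and with extensive efferent synaptic input. The intersex group carries XX chromosomes without DsxF.

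Library totals lay between 14708863 and 18379886 estimated counts in dsxF+/+ XY, between 14177255 and 17477058 in dsxF-/- XX and between 15912671 and 17188581 in dsxF+/+ XX. In replicate 3 of dsxF+/+ XX, 10 transcripts held 23.65% of all counts, while the top 10 of the other 8 libraries held 8.953% to 14.23%. The 4 genes used to check the tissue were present in all 9 libraries. These were the ear channel gene nanchung (AGAP012241-RA), nompB (AGAP006324-RA), needed to build sensory cilia, the ciliary tektin-3 (AGAP000219-RA) and the microtubule subunit tubulin alpha (AGAP010971-RA). They moved with the groups: their summed level was 3545 to 6912 CPM in dsxF+/+ XY, 3131 to 4928 CPM in dsxF-/- XX and 1262 to 1565 CPM in dsxF+/+ XX. That order was built in by how they were picked. From these same libraries, the study had listed all 4 as higher in males and in intersex females than in control females. No identifier in the sources used here names doublesex or markers of muscle, eye, fat body or olfactory cells, so neither the targeted gene nor carry-over of other tissue was analysed here.

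The XY-high transcripts made up 0.412% to 0.468% of all counts in the dsxF+/+ XY libraries, against 0.0893% to 0.0959% in the dsxF-/- XX libraries and 0.0374% to 0.0480% in the dsxF+/+ XX libraries. Their mean in dsxF+/+ XY ran from 2.87 to 946 CPM with a median of 36.3 CPM. Of the 29, 10 averaged over 100 CPM in dsxF+/+ XY, 12 lay between 10 and 100 CPM and 7 were under 10 CPM. CPM are not divided by transcript length, so these ranks are of counts and not of RNA molecules. Those just inside the ratio of 2 were AGAP028121-RA at 2.001, AGAP008689-RB at 2.02 and AGAP011097-RA at 2.023. AGAP003541-RA (just under 2), AGAP000853-RA (1.998) and AGAP001570-RA (1.939) fell just outside it. By level, AGAP011046-RA was just inside with a lowest XY library of 2.059 CPM, before AGAP011047-RA at 2.312 CPM and AGAP001284-RA at 3.263 CPM, and 0 transcripts missed the list by the minimum level alone.

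**Figure D1:**
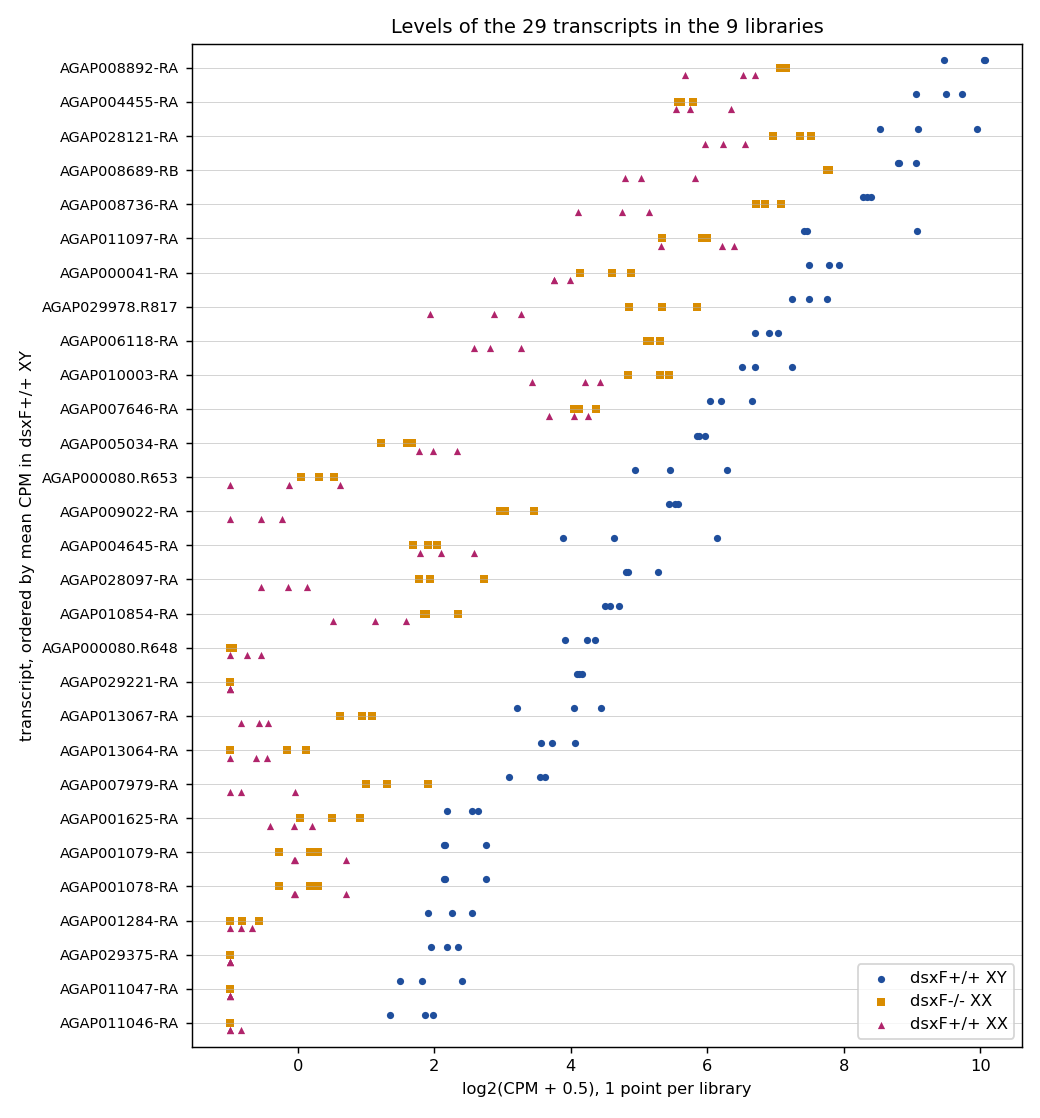
Level of each of the 29 XY-high transcripts in each of the 9 libraries, as log2(CPM + 0.5), with rows ordered by the mean CPM in dsxF+/+ XY. Blue circles are the 3 dsxF+/+ XY libraries, orange squares the 3 dsxF-/- XX libraries and magenta triangles the 3 dsxF+/+ XX libraries. By the rule the XY points lie right of all others in every row, while the distance between orange and magenta points differs from row to row.

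All 29 passed the filter on low counts, which was run on all 9 libraries together. They were among the 12379 transcripts tested with edgeR's quasi-likelihood test. In dsxF+/+ XY against dsxF+/+ XX (MvF), 29 of 29 were called higher at a Benjamini-Hochberg adjusted p under 0.05, where 11.7% of all transcripts tested were called higher. In dsxF+/+ XY against dsxF-/- XX (MvI), 28 of 29 were called higher, where 1.3% of all transcripts tested were. No XY-high transcript was called lower, where 18.1% of all were lower in MvF and 6.09% in MvI. The rule used both contrasts, so nothing is read from these counts. The 1 transcript not called in MvI was AGAP007979-RA, with an MvI log2 fold change of 2.33 ± 0.71 (SE) and an adjusted p of 0.0904 in edgeR; DESeq2 and limma-voom, which called 2.65% and 1.4% of all transcripts higher and 8.34% and 5.25% lower in MvI, called all 29. The median MvF log2 fold change was 4.03 over the XY-high transcripts and 0.02 over all transcripts tested, and the median MvI log2 fold change was 3.14 over the XY-high transcripts and 0.02 over all.

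Annotation in the sources used here was thin. A gene name was given for 3 of the 29, and 15 had at least 1 specific Gene Ontology term in the study's supplementary lists, the 3 named ones among them, while 14 had neither. Those lists are shortened, so the absence of a term says nothing about a gene. By their terms, the annotated transcripts included an ion channel and a transmitter receptor, a synaptic gene, a transporter, an axonemal dynein chain, a small GTPase signalling gene, a regulator of gene expression, genes for catalysis on DNA, and a gene with separate terms for transferase activity and phosphorus metabolism.

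No estimated count was found in any XX library, of either genotype, for 3 of the transcripts. AGAP029221-RA, listed under regulation of gene expression, had 17.5, 16.5 and 16.8 CPM in the dsxF+/+ XY libraries and 0 in all 3 dsxF-/- XX and all 3 dsxF+/+ XX libraries. With a coefficient of variation of 2.89% it varied least of the 29 among the XY libraries. AGAP029375-RA, which has no name or specific term in these sources, had 4.06, 3.38 and 4.56 CPM in dsxF+/+ XY and likewise 0 in the dsxF-/- XX and the dsxF+/+ XX group. AGAP011047-RA, with terms for catalytic activity on DNA and nucleic acid binding, had 3.02, 2.31 and 4.79 CPM in dsxF+/+ XY and again 0 throughout both XX groups.

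These transcripts were picked from the list for having no count in the 6 XX libraries. The rule admits only transcripts low in both XX groups, so nothing about DsxF is read from this pattern. Against a floor of 3 counts summed over a group, which is 0.0637 CPM in dsxF-/- XX and 0.06 CPM in dsxF+/+ XX, AGAP029221-RA was at least 266-fold higher in the XY libraries than in dsxF-/- XX, and at least 282-fold higher than in dsxF+/+ XX. For AGAP029375-RA the bounds were at least 62.8-fold higher than in dsxF-/- XX and at least 66.7-fold higher than in dsxF+/+ XX. AGAP011047-RA was at least 53.0-fold higher in the XY libraries than in dsxF-/- XX, and at least 56.2-fold higher than in dsxF+/+ XX. The counts carry no molecular identifiers, so these bounds cover counting error only. AGAP029221-RA and AGAP029375-RA had fractional counts in all 3 XY libraries, the mark of reads divided between transcripts. Their bounds therefore also depend on how those reads were assigned. The tables used here place none of these genes on a chromosome.

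A further 7 transcripts were at 0 in some XX libraries but not in all. AGAP011046-RA, which also has a term for catalytic activity on DNA, had 2.06, 3.13 and 3.43 CPM in dsxF+/+ XY, 0 in all 3 dsxF-/- XX libraries and 0, 0.0593 and 0 CPM in dsxF+/+ XX. The single dsxF+/+ XX value is 1 count, so AGAP011046-RA differs from AGAP011047-RA by that count alone in its XX libraries. AGAP013064-RA, with no name or term, had 12.7, 16.3 and 11.3 CPM in dsxF+/+ XY, 0.396, 0.583 and 0 CPM in dsxF-/- XX and 0.157, 0.231 and 0 CPM in dsxF+/+ XX. The levels of AGAP013064-RA overlapped between the XX groups, far below the XY libraries.

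Among the transcripts with a gene name, the channel and the receptor stayed low in both XX groups. AGAP001284-RA encodes a potassium inwardly-rectifying channel of subfamily J, a class that holds membranes near the potassium potential. It had 5.34, 3.26 and 4.30 CPM in dsxF+/+ XY, 0, 0.172 and 0.0649 CPM in dsxF-/- XX and 0, 0.0593 and 0.126 CPM in dsxF+/+ XX. The intersex and female libraries overlapped, with 4 and 3 counts over their 3 libraries, and the log2 fold change in dsxF-/- XX against dsxF+/+ XX (IvF) was 0.28 ± 1.05 (SE). At 4 and 3 counts, a difference between the XX groups was not detectable at this depth.

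AGAP005034-RA has the name putative metabotropic glutamate receptor 5 in the study's supplementary list. Receptors of that class are G protein-coupled receptors for the transmitter glutamate. In the study's text AGAP005034-RA is also called a nicotinic acetylcholine receptor subunit, so its identity is not settled here. Its levels were 58.5, 61.8 and 57.4 CPM in dsxF+/+ XY, 2.54, 2.69 and 1.82 CPM in dsxF-/- XX and 2.91, 3.44 and 4.52 CPM in dsxF+/+ XX. The XY libraries lay close together, with a coefficient of variation of 3.87%. It was also the 1 transcript of the 29 with every dsxF-/- XX library below every dsxF+/+ XX library, a split found in 14.7% of all transcripts tested. The IvF log2 fold change was -0.75 ± 0.27 (SE), with an adjusted p of 0.111 in edgeR's quasi-likelihood test, and so it was not called.

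The dynein chain behaved otherwise. AGAP008689-RB encodes an axonemal dynein intermediate chain 1, part of the motor complexes that bend motile cilia. Its levels were 449, 535 and 443 CPM in dsxF+/+ XY, 219, 217 and 216 CPM in dsxF-/- XX and 27.3, 55.7 and 32.3 CPM in dsxF+/+ XX. The 3 groups did not overlap, and the intersex libraries lay well above the female ones, while the lowest XY library was 2.02 times the highest intersex one. In IvF it was called higher, with a log2 fold change of 2.39 ± 0.28 (SE) and an adjusted p of 0.00174 in edgeR.

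The next 4 transcripts carry terms for synapses, transport, signalling or transferase activity, and edgeR called none of them in IvF. AGAP007646-RA, listed under synapse, chemical synaptic transmission and metal ion binding, had 72.7, 100.3 and 65.4 CPM in dsxF+/+ XY, 20.2, 16.02 and 16.9 CPM in dsxF-/- XX and 12.3, 18.5 and 16.025 CPM in dsxF+/+ XX. Intersex and female libraries overlapped, and the 95% interval of the IvF log2 fold change, -0.52 to 0.65, lay within 2-fold in both directions. AGAP010854-RA, with a term for transporter activity, had 25.5, 22.03 and 23.3 CPM in dsxF+/+ XY, 3.10, 4.58 and 3.18 CPM in dsxF-/- XX and 0.931, 2.49 and 1.70 CPM in dsxF+/+ XX. Each intersex library of AGAP010854-RA was above each female library, but its IvF log2 fold change of 0.97 ± 0.35 (SE) was not called (edgeR adjusted p = 0.116), although it was without replicate 2 of dsxF+/+ XX (1.30, adjusted p = 0.047).

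AGAP011097-RA, with terms for small GTPase-mediated signal transduction and cytoskeletal protein binding, had 176, 536 and 169.8 CPM in dsxF+/+ XY, 60.4, 40.1 and 63.2 CPM in dsxF-/- XX and 39.3, 83.5 and 73.5 CPM in dsxF+/+ XX. Replicate 2 stood about 3 times above the other XY libraries, while the XX groups overlapped. AGAP028121-RA, with terms for transferase activity and phosphorus metabolism, had 540.4, 985 and 368 CPM in dsxF+/+ XY, 183, 124 and 163 CPM in dsxF-/- XX and 93.6, 61.9 and 74.3 CPM in dsxF+/+ XX. Its XX groups did not overlap, and its IvF log2 fold change was 0.92 ± 0.38 (SE) with an edgeR adjusted p of 0.157, or 0.0464 without replicate 2 of dsxF+/+ XY.

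In IvF, the comparison the rule did not set directly, 8 of the 29 XY-high transcripts were called higher in dsxF-/- XX and 0 lower. The rule did cap the level of both XX groups, so the 29 were not chosen like the transcripts they are set beside. Over all transcripts tested, 4.18% were called higher and 6.87% lower. Some of the 29 passed the filter on low counts only through the XY libraries, where the rule made them high. With the XX groups filtered and fitted alone, 22 of the 29 were tested, and edgeR called 7 higher and 0 lower. In that fit 3.33% of all transcripts tested were called higher and 7.77% lower. In the fit of all libraries, at an unadjusted p under 0.05, edgeR gave 13 of the 29 higher and 2 lower. The 2 were AGAP005034-RA and AGAP000080.R648, of which AGAP000080.R648 had only 0.313 counts in dsxF-/- XX and 4.55 in dsxF+/+ XX. By adjusted p, DESeq2 called 10 higher and 0 lower, where it called 6.46% of all transcripts higher and 11% lower. With limma-voom 7 were higher and 0 lower, against 4.74% and 8.43% of all. The median IvF log2 fold change was 0.65 over the 29 and -0.002 over all transcripts tested. In 13 of the 29 every intersex library exceeded every female library, where 16.8% of all transcripts tested showed that order. The 4 genes used to check the tissue were also higher in dsxF-/- XX: edgeR called 4 of 4 at an adjusted p under 0.05, with IvF log2 fold changes of 1.05 to 1.47, and nanchung (AGAP012241-RA) had 157, 209 and 199 CPM in dsxF-/- XX against 65.3, 75.4 and 52.1 CPM in dsxF+/+ XX. These 4 came from a set the study had called higher in this comparison on the same libraries, so nothing is read from their calls. Any part of the 4 genes in the IvF changes of the XY-high transcripts was not tested.

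AGAP009022-RA, with a term for carbohydrate derivative binding, had the largest of the 8 IvF changes. It had 42.7, 45.7 and 46.9 CPM in dsxF+/+ XY, 7.69, 10.5 and 7.33 CPM in dsxF-/- XX and 0, 0.356 and 0.189 CPM in dsxF+/+ XX. The intersex libraries were all well above the near-absent female level, and the IvF log2 fold change was 5.39 ± 0.56 (SE), with an adjusted p of 0.00124 in edgeR. AGAP028097-RA, annotated to the nucleus with a protein adaptor activity, had 27.5, 38.3 and 28.1 CPM in dsxF+/+ XY, 6.14, 3.32 and 2.92 CPM in dsxF-/- XX and 0.407, 0.593 and 0.189 CPM in dsxF+/+ XX. Its groups did not overlap either, and its IvF log2 fold change was 3.26 ± 0.45 (SE; edgeR adjusted p = 0.00324).

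The smallest IvF p of the 29 belonged to AGAP006118-RA, which has no name or specific term in these sources. It had 131, 103 and 119 CPM in dsxF+/+ XY, 35.2, 34.0 and 39.1 CPM in dsxF-/- XX and 6.52, 9.19 and 5.47 CPM in dsxF+/+ XX. All groups were apart, with an IvF log2 fold change of 2.25 ± 0.20 (SE) and an edgeR adjusted p of 0.000475. AGAP008736-RA, likewise unnamed, had 335, 311 and 323 CPM in dsxF+/+ XY, 115, 134 and 105 CPM in dsxF-/- XX and 16.8, 34.8 and 26.5 CPM in dsxF+/+ XX. It too separated the groups, with an IvF log2 fold change of 2.06 ± 0.28 (SE; edgeR adjusted p = 0.00267).

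The remaining called transcripts were AGAP029978.R817, described with its gene below, and a pair of low ones. AGAP013067-RA had 21.2, 8.78 and 16.1 CPM in dsxF+/+ XY, 1.41, 1.03 and 1.62 CPM in dsxF-/- XX and 0.175, 0.237 and 0.0628 CPM in dsxF+/+ XX, and an IvF log2 fold change of 2.93 ± 0.49 (SE; edgeR adjusted p = 0.00781). Its call was lost with limma-voom (adjusted p = 0.0695). AGAP007979-RA had 8.04, 11.8 and 11.2 CPM in dsxF+/+ XY, 1.97, 3.26 and 1.49 CPM in dsxF-/- XX and 0, 0.474 and 0.0628 CPM in dsxF+/+ XX, and an IvF log2 fold change of 3.50 ± 0.84 (SE; edgeR adjusted p = 0.0298). In both the intersex libraries lay above the female ones and below the male ones, but the AGAP007979-RA call was lost without any 1 intersex library (edgeR adjusted p of 0.0759, 0.0803 and 0.0566 without replicates 1, 2 and 3), without replicate 3 of dsxF+/+ XX (0.0986) and without replicate 3 of dsxF+/+ XY (0.0526). That call was also lost when the XX groups were filtered and fitted alone (edgeR adjusted p = 0.0646).

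Of the 21 transcripts not called in IvF, 10 had a positive log2 fold change, 8 a negative one and 3 were at 0 in both groups. The 95% interval stayed within 2-fold in both directions for 2 of the 21, AGAP007646-RA and AGAP004455-RA. It reached beyond 2-fold for the others with counts, so a difference of that size remained possible there. AGAP004455-RA, without a name or specific term, had 846, 532 and 722 CPM in dsxF+/+ XY, 48.3, 55.0 and 47.2 CPM in dsxF-/- XX and 81.2, 53.3 and 45.9 CPM in dsxF+/+ XX. Its XX groups overlapped, and its IvF 95% interval ran from -0.88 to 0.16 on the log2 scale. AGAP008892-RA, the most abundant of the 29 in counts and also unnamed, had 1069, 706 and 1064 CPM in dsxF+/+ XY, 142, 134 and 139 CPM in dsxF-/- XX and 91.1, 103 and 50.7 CPM in dsxF+/+ XX. Every intersex library of AGAP008892-RA was above every female one, yet its IvF log2 fold change of 0.67 ± 0.24 (SE) was not called by edgeR (adjusted p = 0.111) while DESeq2 did call it (adjusted p = 0.0416).

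AGAP000041-RA, with a term for protein binding, had 244, 179.6 and 221 CPM in dsxF+/+ XY, 29.05, 17.1 and 23.9 CPM in dsxF-/- XX and 13.0, 12.9 and 15.3 CPM in dsxF+/+ XX. AGAP010003-RA, without a name or term, had 90.8, 151 and 103 CPM in dsxF+/+ XY, 39.1, 42.9 and 28.1 CPM in dsxF-/- XX and 10.2, 21.1 and 18.04 CPM in dsxF+/+ XX. Both had all intersex libraries above all female ones without an edgeR call in IvF, with log2 fold changes of 0.65 ± 0.24 (SE) for AGAP000041-RA and 1.04 ± 0.34 (SE) for AGAP010003-RA. DESeq2 called AGAP010003-RA higher in IvF (adjusted p = 0.0349).

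To place the intersex level between the controls, the difference of the dsxF-/- XX and dsxF+/+ XX means of log2(CPM + 0.5) was divided by that of the dsxF+/+ XY and dsxF+/+ XX means, so that 1 is the male and 0 the female level. The position had a median of 0.0822 and ran from -0.137 for AGAP005034-RA to 0.694 for AGAP008689-RB. It was under 0.1 in 15 transcripts, between 0.1 and 0.4 in 6 and at or over 0.4 in 8. The 15 include 6 transcripts with under 5 counts summed over the 3 libraries of each XX group, where the position rests largely on the 0.5 CPM added: AGAP029221-RA, AGAP029375-RA, AGAP011047-RA, AGAP011046-RA, AGAP001284-RA and AGAP000080.R648. Over the other 23 the median position was 0.23, with 9 under 0.1; this split was made after the values were seen. The rule itself keeps the position below 1, by requiring the XY libraries to exceed the intersex ones. With 0.1 CPM added in place of 0.5, the median was 0.156.

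**Figure D2:**
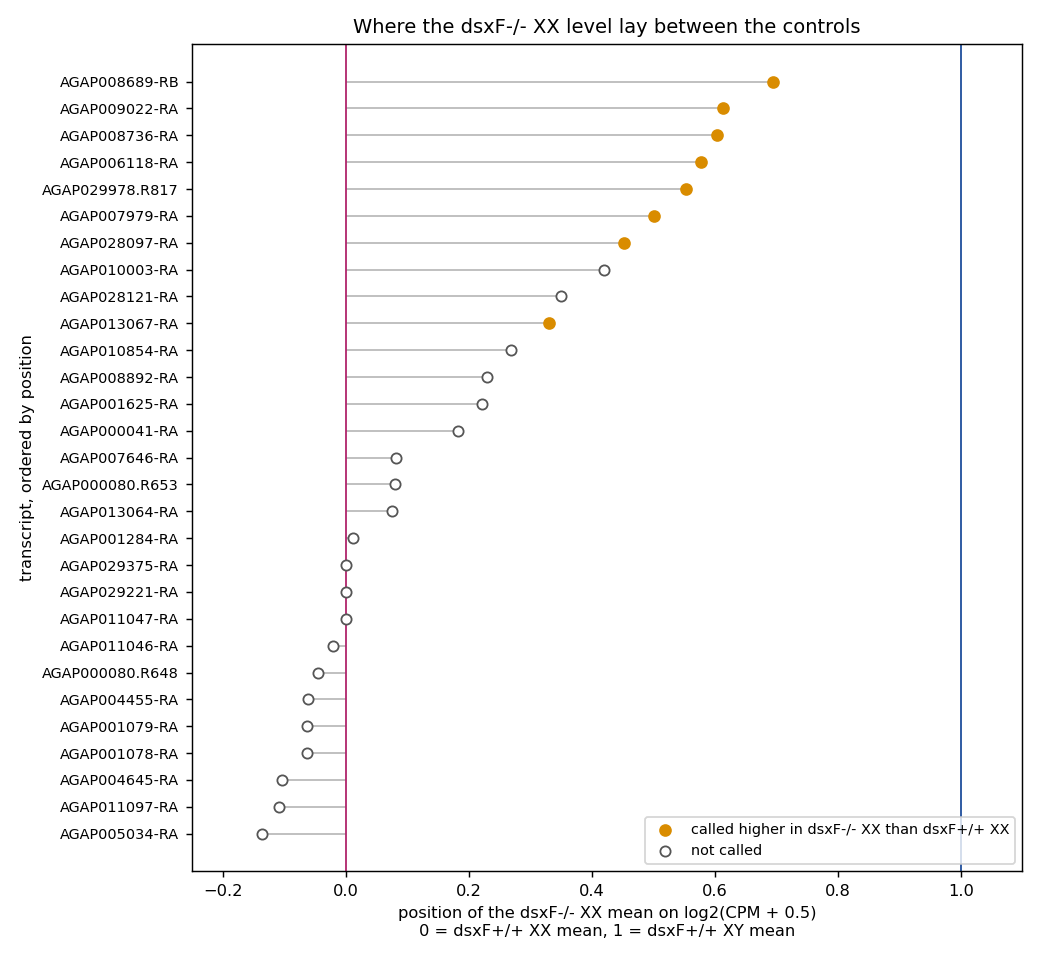
Position of the dsxF-/- XX mean between the dsxF+/+ XX mean (0, magenta line) and the dsxF+/+ XY mean (1, blue line) on log2(CPM + 0.5), 1 row per XY-high transcript. Filled orange points are the 8 transcripts called higher in dsxF-/- XX than in dsxF+/+ XX by edgeR, open points the 21 not called; 15 of the 29 lie under 0.1 and the highest, AGAP008689-RB, is at 0.694.

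Of the 28 genes, 3 have more than 1 transcript in the table (10.7%, as against 10.7% of all 13845 genes). For these, the other transcripts and the sum over the gene are given beside the XY-high ones. The rule did not use the other transcripts. The sums contain the XY-high transcripts, so their comparisons of males with either XX group draw in part on values the rule used and are descriptions. Reads that fit several transcripts of a gene were divided between them by kallisto, so the counts of these transcripts depend on each other. Comparisons of males with either XX group are therefore descriptions for the other transcripts as well. The same holds for shares of a gene's counts, since their numerator is the XY-high transcripts. A sum over a gene does not depend on division within the gene, but reads can also be divided between genes.

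AGAP000080 contributed both AGAP000080.R648 and AGAP000080.R653 out of 6 transcripts. AGAP000080.R648 had 19.9, 18.4 and 14.6 CPM in dsxF+/+ XY, 0.313 estimated counts in total over the dsxF-/- XX libraries and 0, 0.0952 and 0.185 CPM in dsxF+/+ XX. AGAP000080.R653 had 43.4, 78.0 and 30.1 CPM in dsxF+/+ XY, 0.744, 0.948 and 0.531 CPM in dsxF-/- XX and 0, 1.04 and 0.419 CPM in dsxF+/+ XX. Both were at or under 1.04 CPM in the 6 XX libraries, and the XX groups overlapped. For AGAP000080.R648 the 3 dsxF-/- XX libraries and the 3 dsxF+/+ XX libraries summed to 0.313 and 4.55 counts, too few to compare.

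Together the pair took 64.8%, 43.4% and 69.2% of the counts of AGAP000080 in the dsxF+/+ XY libraries, 0.232%, 0.457% and 0.202% in dsxF-/- XX and 0%, 0.978% and 1.30% in dsxF+/+ XX. The share averaged 59.1% ± 13.9 in the XY group, 0.297% ± 0.140 in the intersex group and 0.759% ± 0.676 in the female group (SD, n = 3 each). Intersex and female shares overlapped, far below the male shares, a gap that follows in part from the rule. AGAP000080.R652, which was too low to be tested or to meet the rule, had 0.701, 0.642 and 1.02 CPM in dsxF+/+ XY and less than 1 estimated count in every XX library.

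The other transcripts of AGAP000080 had another order. AGAP000080.R649 had 21.1, 61.5 and 11.8 CPM in dsxF+/+ XY, 201, 119.8 and 205 CPM in dsxF-/- XX and 26.3, 59.8 and 18.8 CPM in dsxF+/+ XX. It was highest in all 3 intersex libraries and overlapped between males and females. Its edgeR log2 fold changes were 2.24 ± 0.64 (SE; adjusted p = 0.0536) in IvF and -2.31 ± 0.64 (SE; adjusted p = 0.0644) in MvI. With DESeq2 the adjusted p was 0.00244 in IvF and 0.00233 in MvI, and with limma-voom 0.0302 in IvF and 0.0298 in MvI. In edgeR it also passed in IvF without replicate 2 (adjusted p = 0.0138) or 3 (0.0411) of dsxF+/+ XY or replicate 2 of dsxF+/+ XX (0.0321), and in MvI without replicate 2 of dsxF+/+ XY (0.0122) or of dsxF+/+ XX (0.0497).

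AGAP000080.R650 had 10.8, 54.1 and 5.78 CPM in dsxF+/+ XY, 105, 77.9 and 51.2 CPM in dsxF-/- XX and 21.8, 50.6 and 26.3 CPM in dsxF+/+ XX. AGAP000080.R651 was lower, with 1.72, 9.65 and 1.27 CPM in dsxF+/+ XY, 15.5, 12.1 and 6.37 CPM in dsxF-/- XX and 0, 4.78 and 0.733 CPM in dsxF+/+ XX. For both, every intersex library exceeded every female one and male replicate 2 was far above the other males. Neither was called by edgeR in any of the comparisons with all libraries (adjusted p of 0.712, 0.319 and 0.38 for AGAP000080.R650 and 0.466, 0.653 and 0.245 for AGAP000080.R651 in MvF, MvI and IvF). Without replicate 2 of dsxF+/+ XY, AGAP000080.R650 was called lower in dsxF+/+ XY in MvF (-2.01, adjusted p = 0.0196) and MvI (-3.16, adjusted p = 0.012).

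Summed over its 6 transcripts, AGAP000080 had 97.7, 222 and 64.6 CPM in dsxF+/+ XY, 322, 211 and 263 CPM in dsxF-/- XX and 48.2, 116 and 46.5 CPM in dsxF+/+ XX. The sum overlapped between males and females and between males and intersex females, while the intersex libraries all exceeded the female ones. Over all gene sums tested, edgeR called 5.05% higher and 9.4% lower in IvF, 13.1% higher and 19.5% lower in MvF, and 1.57% higher and 7.66% lower in MvI. For AGAP000080 the IvF log2 fold change was 1.81 ± 0.51 (SE; adjusted p = 0.0409). In MvF it was 0.94 ± 0.50 (SE; adjusted p = 0.176) and in MvI -0.88 ± 0.50 (SE; adjusted p = 0.386). The IvF call did not outlast the removal of replicate 1, 2 or 3 of dsxF-/- XX (adjusted p of 0.116, 0.0671 and 0.0895) or of replicate 1 or 3 of dsxF+/+ XX (0.118 and 0.143), and without replicate 2 of dsxF+/+ XX the MvF difference was called (1.44, adjusted p = 0.0445).

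In AGAP029978 one transcript was higher in males and another lower. AGAP029978.R817 had 151, 179 and 215 CPM in dsxF+/+ XY, 40.02, 57.1 and 28.4 CPM in dsxF-/- XX and 6.86, 9.12 and 3.32 CPM in dsxF+/+ XX. AGAP029978.R815 ran the other way, with 48.9, 45.8 and 56.4 CPM in dsxF+/+ XY, 107, 119 and 112 CPM in dsxF-/- XX and 205, 257 and 159.6 CPM in dsxF+/+ XX. For both transcripts the intersex libraries lay between the male and the female libraries with no overlap.

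The edgeR IvF log2 fold change was 2.61 ± 0.37 (SE; adjusted p = 0.00339) for AGAP029978.R817 and -0.98 ± 0.18 (SE; adjusted p = 0.0111) for AGAP029978.R815. AGAP029978.R815 was also lower in dsxF+/+ XY, with edgeR log2 fold changes of -2.02 ± 0.19 (SE; adjusted p = 0.000101) in MvF and -1.04 ± 0.18 (SE; adjusted p = 0.00923) in MvI. These male comparisons are descriptions, because the rule chose AGAP029978.R817 and reads the transcripts share were divided between them. The transcript AGAP029978.R816 was not called by edgeR (adjusted p of 0.151 in MvF, 0.0856 in MvI and 0.453 in IvF), while DESeq2 called it lower in dsxF+/+ XY in MvI (-1.12, adjusted p = 0.0284). AGAP029978.R817 took 73.4%, 76.2% and 76.5% of the gene's counts in dsxF+/+ XY, 24.2%, 28.2% and 18.1% in dsxF-/- XX and 3.10%, 3.22% and 1.87% in dsxF+/+ XX. The sum over the gene was 205, 235 and 280.2 CPM in dsxF+/+ XY, 165, 203 and 157 CPM in dsxF-/- XX and 221, 283 and 178 CPM in dsxF+/+ XX. These sums overlapped between males and females and between intersex and females, while every male library was above every intersex one, and edgeR called none of the gene's 3 comparisons (adjusted p of 0.732 in MvF, 0.147 in MvI and 0.176 in IvF). The AGAP029978.R815 call in IvF was lost without replicate 1 or 3 of dsxF-/- XX (adjusted p of 0.0596 and 0.0517).

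In AGAP008689 the dynein transcript AGAP008689-RB took 89.7%, 83.3% and 88.5% of the gene's counts in dsxF+/+ XY, 82.7%, 83.7% and 82.3% in dsxF-/- XX and 37.7%, 48.4% and 45.6% in dsxF+/+ XX. By share, unlike by level, intersex and male libraries overlapped and both stood apart from the females. The other transcript, AGAP008689-RA, had 51.6, 107 and 57.4 CPM in dsxF+/+ XY, 45.9, 42.3 and 46.4 CPM in dsxF-/- XX and 45.1, 59.4 and 38.5 CPM in dsxF+/+ XX. Its groups overlapped apart from all males lying above all intersex libraries, and edgeR called it in none of the comparisons (adjusted p of 0.142 in MvF, 0.166 in MvI and 0.747 in IvF). The gene sum was called higher in dsxF-/- XX than in dsxF+/+ XX, by 1.49 ± 0.25 on the log2 scale (SE; edgeR adjusted p = 0.00417).

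**Figure D3:**
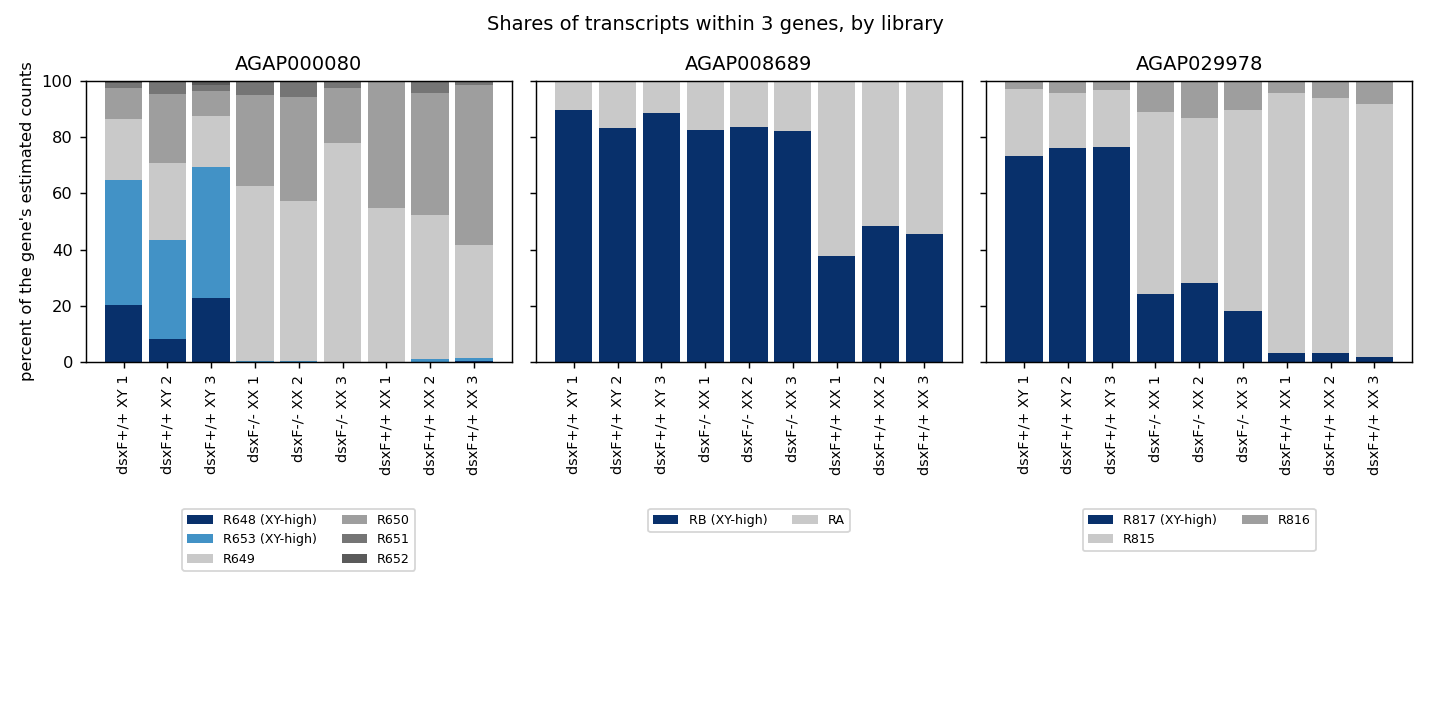
Percent of each gene's estimated counts that fell to each of its transcripts, 1 stacked bar per library (3 dsxF+/+ XY, 3 dsxF-/- XX, 3 dsxF+/+ XX from left to right), for AGAP000080, AGAP008689 and AGAP029978. Blue parts are XY-high transcripts and grey parts the others. The excess of blue in dsxF+/+ XY follows in part from the rule. The blue part of dsxF-/- XX is at most 0.457% in AGAP000080, 82.3% to 83.7% in AGAP008689 and 18.1% to 28.2% in AGAP029978.

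When the rule was applied to gene sums, 25 genes met it. The 3 lost were AGAP000080, AGAP008689 and AGAP029978, those with more than 1 transcript. On sums, edgeR called 8 of the 28 genes higher and 0 lower in IvF, beside 5.05% and 9.4% of all gene sums tested.

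A pair of XY-high transcripts could not be told from each other. AGAP001078-RA and AGAP001079-RA had identical estimated counts in all 9 libraries, with 3.92, 6.23 and 3.96 CPM each in dsxF+/+ XY, 0.326, 0.73 and 0.631 CPM in dsxF-/- XX and 0.459, 1.13 and 0.472 CPM in dsxF+/+ XX. They are 1 measurement listed under 2 identifiers, and its XX groups overlapped. Of the 29 transcripts, 17 had whole-number counts in every library and 12 had fractional counts in at least 1, the mark of reads divided between transcripts.

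Among the 3 dsxF+/+ XY libraries the 29 varied by a median coefficient of variation of 19.6% (2.89% to 82.1%), beside a median of 21.6% over other transcripts of like level. The rule set a minimum on the lowest XY library, which disfavours transcripts with 1 low XY library. The spread comes from those same values, so it is a description, and nothing is read from the difference. A coefficient of variation over 40% was found for AGAP004645-RA (82.1%), AGAP011097-RA (71.4%), AGAP028121-RA (50.5%), AGAP000080.R653 (48.9%) and AGAP013067-RA (40.7%). AGAP004645-RA, with a term for metal ion binding, had 70.2, 14.3 and 24.4 CPM in dsxF+/+ XY, 3.24, 3.60 and 2.72 CPM in dsxF-/- XX and 2.97, 5.52 and 3.77 CPM in dsxF+/+ XX. Replicate 1 was thus highest and replicate 2 lowest for AGAP004645-RA and AGAP013067-RA. For AGAP011097-RA, AGAP028121-RA and AGAP000080.R653, replicate 2 was highest and replicate 3 lowest. The most variable transcripts thus shared an order within each of these sets but not between them. Over the 29, the highest XY library was replicate 2 in 13, replicate 1 in 11 and replicate 3 in 5.

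**Figure D4:**
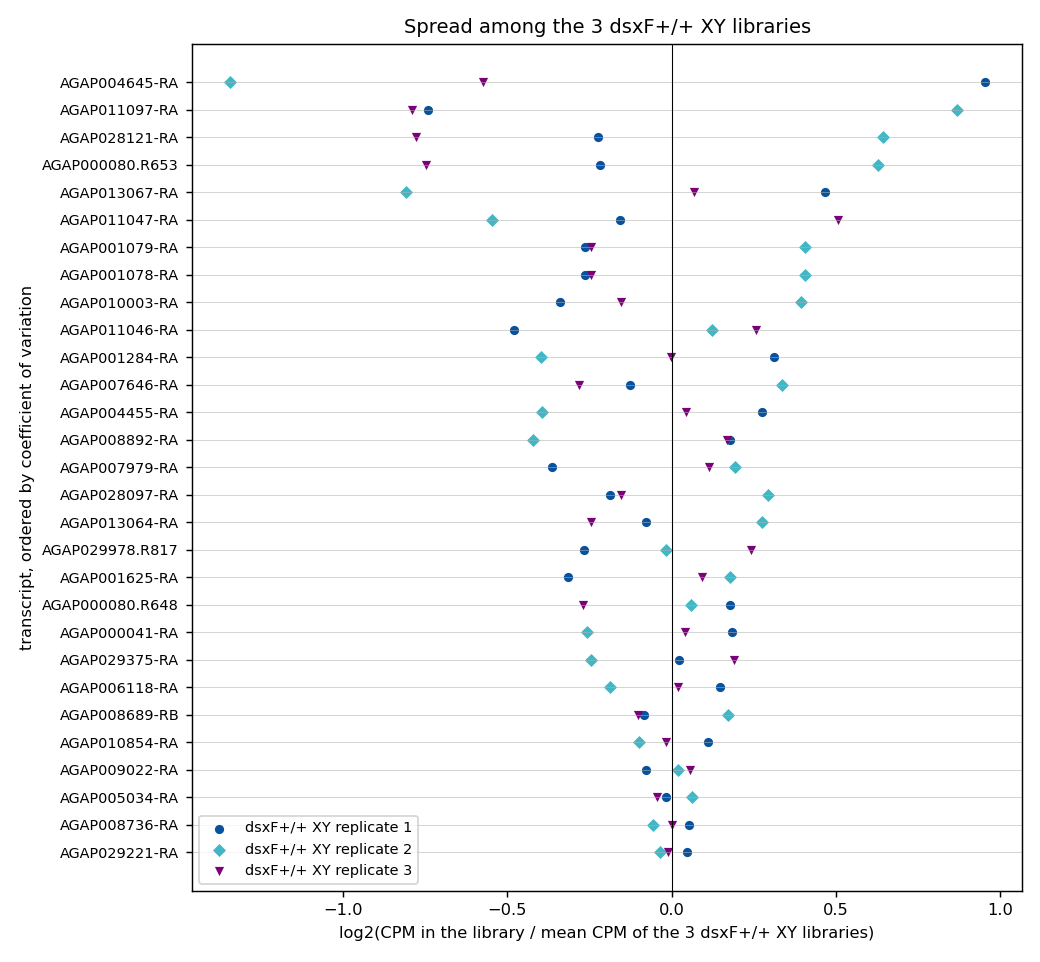
Deviation of each dsxF+/+ XY library from the mean of the 3, as log2(CPM in the library / mean CPM), 1 row per XY-high transcript ordered by coefficient of variation. Circles, diamonds and triangles are replicates 1, 2 and 3; the spread runs from 2.89% for AGAP029221-RA at the bottom to 82.1% for AGAP004645-RA at the top, and no single replicate is highest throughout.

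The study marked 82 transcripts as related to motor proteins, to channels, receptors and signalling, or to cuticle, a choice made on these same libraries and thus no independent evidence of direction. The XY-high transcripts among them were 3 of the 82 (3.66%, beside 0.181% of all transcripts). These were the dynein AGAP008689-RB, the channel AGAP001284-RA and the receptor AGAP005034-RA. The study drew the 82 from transcripts it found raised in males over control females, and the rule also required high male levels. An overlap above the share of all transcripts was thus built in, and nothing is read from it. Of the 1453 transcripts edgeR called higher in MvF, 29 were XY-high. The shares of all transcripts tested that edgeR called, against which the next counts stand, were 11.7% higher in MvF, 4.18% higher in IvF, and 1.3% higher and 6.09% lower in MvI. Of 39 motor-related transcripts tested, edgeR called 34 higher in MvF, 23 higher in IvF, and 2 higher and 1 lower in MvI. Of 33 transcripts for channels, receptors and signalling, 26 were called higher in MvF, 8 higher in IvF and 3 higher in MvI. Of 8 cuticle transcripts tested out of 10 listed, 8 were called higher in MvF, 6 in IvF and 1 in MvI, and none was XY-high. The median IvF log2 fold change was 0.94 over the motor-related transcripts, 0.79 over the channels and receptors and 3.37 over the cuticle transcripts, beside 0.65 over the 29 XY-high transcripts and -0.002 over all.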

How the data were processed

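RNA from pooled pedicels was made into cDNA with the SMART-Seq v4 kit and sequenced in 9 libraries. The authors quantified reads with kallisto (version not given in the sources used here) against AgamP4 transcripts, so the deposited values are estimated counts per transcript, unscaled. Every column was assigned to a sample (0 left over). The counts were rounded and tested in R 4.3.3 with edgeR 4.0.16 (TMM, filterByExpr by group, 1 fit of 3 groups, quasi-likelihood test, Benjamini-Hochberg over the 12379 transcripts tested of 16066). The edgeR script was tested on simulated data. Alternatives were DESeq2 1.42.0, limma-voom (limma 3.58.1), other filters, scalings and thresholds, blocks and each library left out. Intervals are 95% intervals of the edgeR fit.

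The transcripts and lists were chosen with earlier results of these data known. Those named are transcripts the study names, the 10 with the highest lowest-XY level, those at 0 in all XX libraries, the 5 smallest IvF p in each direction, members of genes with several transcripts, those beside a threshold, and examples per annotation. AGAP007979-RA, AGAP013064-RA, AGAP013067-RA, AGAP001078-RA and AGAP001079-RA were added after their values were seen. RefSeq identifiers matched 0 of the transcripts, so positions and sequences were not used here.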

Additional observations from a re-analysis of the deposited data

How the results depend on the processing

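The list depended most on the ratio in its rule: 59 transcripts met a ratio of 1.5 and 14 a ratio of 4. A lowest XY level of 1 CPM left 29 and of 5 CPM 22, CPM scaled by TMM gave 33, and leaving out 1 library gave 29 to 42 (42 without replicate 2 of dsxF+/+ XY). Dropping a library can only loosen the rule, so the original 29 stay in by construction. With at least 10 counts in every library only 14 of the 29 were tested, and 14 were called in MvF, 14 in MvI and 4 in IvF, beside 11.9%, 1.33% and 4.43% of all transcripts. Over the libraries left out, 29 were called in MvF, 25 to 29 in MvI and 7 to 9 higher in IvF. In IvF 0 to 1 were called lower, the 1 being AGAP000080.R648 without replicate 1 of dsxF+/+ XX (-4.44, edgeR adjusted p = 0.0398, from under 5 counts). With 1 library left out the shares of all transcripts called higher ranged from 6.42% to 17.7% in MvF, from 0.515% to 1.49% in MvI and from 1.77% to 7.31% in IvF, and at an adjusted p under 0.01 they were 4.85%, 0.372% and 1.47%.

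With replicate numbers as a block, or runs of sample-sheet numbers, edgeR again called 29, 28 and 8 of the XY-high transcripts higher in MvF, MvI and IvF, beside 12.1%, 0.969% and 3.22% of all with the replicate block and 13.5%, 1.23% and 3.89% with runs. Replicate numbers did not pair the samples (r of same-numbered deviations in MvF 0.229, 0.52 and -0.00236; in IvF -0.344, -0.172 and 0.0985), nor did runs in MvI or IvF, while in MvF the r by run were 0.252, 0.269 and 0.52. Under the replicate block AGAP000080.R649 was called in IvF (2.55, edgeR adjusted p = 0.0389) and MvI (-2.76, adjusted p = 0.0397) and AGAP029978.R816 in MvI (-1.17, adjusted p = 0.0483).

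Some log2 fold changes that were not called with all libraries crossed 0 as single libraries were left out. In MvF these were AGAP000080.R649 (-1.09 to 0.52), AGAP000080.R650 (-2.01 to 0.061) and AGAP000080.R651 (-0.31 to 3.46). In IvF they were AGAP000080.R653 (-0.12 to 1.64), AGAP001078-RA and AGAP001079-RA (-0.60 to 0.12 each), AGAP001284-RA (-0.82 to 1.24) and AGAP007646-RA (-0.11 to 0.17). On gene sums the IvF change of AGAP000080 (1.81) and the MvI change of AGAP008689 (1.21) missed an adjusted p under 0.01. Over the libraries left out, AGAP000080 ranged from 1.58 to 2.32 in IvF and from 0.18 to 1.44 in MvF, and AGAP008689 from 1.01 to 1.29 in MvI (not called at 1.17 without replicate 2 of dsxF-/- XX, edgeR adjusted p = 0.0588). The median position of the intersex level was 0.156 with 0.1 CPM added, and 0.0779 to 0.149 with 1 library left out. The cause of these shifts was not tested. DESeq2 called 2.65% of transcripts higher in MvI and 6.46% in IvF.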
